A study of Mus musculus with 23 samples.

Results

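The 10 genes described here build, coat, guard or break down lipid droplets. They are Plin2, Plin3, Hilpda, G0s2, Dgat1, Dgat2, Pnpla2, Abhd5, Lipe and Mgll, taken by gene symbol from a table of 49492 genes, and all 10 were in it. Polyadenylated RNA was sequenced from mouse spleen CD8+ T cells of 2 genotypes, each given arachidonic acid (AA), octadecenoic acid (OA) or no fatty acid. KO stands for the Lckcre-PLPP1fl/fl genotype, in which a Cre recombinase driven by the T cell promoter of Lck acts on a Plpp1 gene flanked by loxP sites, and WT stands for PLPP1fl/fl, which carries the same flanked gene without Cre. The groups were KO with AA (4 libraries), KO with OA (3), KO untreated (4), WT with AA (4), WT with OA (4) and WT untreated (4), 23 libraries in all. Plpp1 encodes a phospholipid phosphatase of the cell surface. The labels give no dose, treatment time or age, and do not say whether libraries are different animals, so a p-value reflects spread among libraries that may be technical. OA is a monounsaturated and AA a polyunsaturated fatty acid. Since neither dose nor time is known, whether the fatty acids were matched is not known.

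Lipid droplets store fatty acids as triacylglycerol behind a single phospholipid layer that perilipins coat. DGAT enzymes make the triacylglycerol, and the lipases encoded by Pnpla2, Lipe and Mgll take it apart in successive steps, with ABHD5 switching the first lipase on and G0S2 and HILPDA holding it back. T cells keep few droplets at rest and form more when they are given fatty acids, and in many cells fatty acids raise Plin2 through PPAR nuclear receptors.

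Libraries held between 39265131 and 58878203 counts. KO and WT libraries also differed in ways that the labels do not mention. The T cell receptor segment Trbv12-1 took 3.27% to 4.32% of Trbv counts in the 11 KO libraries and 81.6% to 86.0% in the 12 WT libraries, and Xist stood at 2.98 to 5.35 CPM (counts scaled to library size) in KO and 784 to 884 CPM in WT. Genotype cannot be told apart from whatever these mark. Plpp1 averaged 0.507 ± 0.0406 CPM in untreated KO and 0.559 ± 0.201 CPM in untreated WT (SD, n = 4 each; log2 change -0.12, adjusted p = 0.774 by edgeR's quasi-likelihood test). Counts over the whole gene can include exons that Cre leaves in place, so Plpp1 does not check the genotype, and every KO direction below rests on the label. The 5 CD8 T cell markers listed were abundant in all groups, with summed levels between 1215 and 1440 CPM over the KO libraries and between 1496 and 1659 CPM over the WT libraries. The fat cell genes Adipoq, Lep, Cidec, Plin1 and Fabp4 had at most 2, 6, 2, 16 and 24 counts in any library. Of the 4 neutrophil genes listed, S100a8, S100a9 and Ly6g had no count in any, which allows up to 3 counts per library, and Mpo had 2 to 34 counts and was called lower in KO than in WT in all 3 conditions (log2 change -1.80 with AA, -2.45 with OA and -1.55 untreated). Summed dendritic cell markers were 7.22 to 9.24 CPM in untreated KO and 13.6 to 17.6 CPM in untreated WT, and platelet markers 3.23 to 4.36 CPM in untreated KO and 8.42 to 9.94 CPM in untreated WT. Whether these other cells take part in the genotype differences below was not tested.

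OA raised the droplet coat gene Plin2 and the lipase inhibitor Hilpda in both genotypes, and edgeR called none of the lipase genes Pnpla2, Lipe and Mgll with either fatty acid, though Pnpla2 with AA in KO lay near the threshold (adjusted p = 0.0510). Untreated KO cells had a low level of Dgat1, one of the enzymes that complete triacylglycerol, and its level was higher in KO cells given AA or OA. Abhd5, the lipase activator, was higher in KO than in WT in all 3 conditions. A gene was called changed where its p-value, adjusted by Benjamini-Hochberg over the 18015 genes tested, was under 0.05. With AA in KO, 3 of 10 members were called, all higher, against 27.6% of all genes tested (12.2% higher, 15.4% lower). With OA in KO, 4 of 10 were called, 3 higher and 1 lower, against 23.2% of genes (10.5% higher, 12.7% lower). In WT, AA called 0 of 10, against 0.416% of genes (0.161% higher, 0.255% lower), and OA called 2 of 10, both higher, against 3.73% (1.23% higher, 2.5% lower). For AA in WT, 1 member, Dgat1, had an unadjusted p under 0.05 in edgeR, and DESeq2 and limma-voom also called 0. KO against WT called 4 of 10 members with AA, 2 higher and 2 lower, against 42.7% of genes (21.5% higher, 21.2% lower). With OA that comparison called 1 of 10, higher in KO, against 43.1% (21.7% higher, 21.4% lower). Untreated, it called 5 of 10, 1 higher and 4 lower, against 49.8% (25.6% higher, 24.2% lower). The untreated and AA shares are near those of all genes, so they are no property of droplet genes. The median log2 change over members was 0.17 for OA in KO, -0.04 for OA in WT, 0.21 for AA in KO and 0.04 for AA in WT, against -0.01, 0.00, -0.01 and 0.00 over all genes tested. All 11 comparisons use overlapping sets of libraries, and those that involve the untreated cells of a genotype share them.

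**Figure D1:**
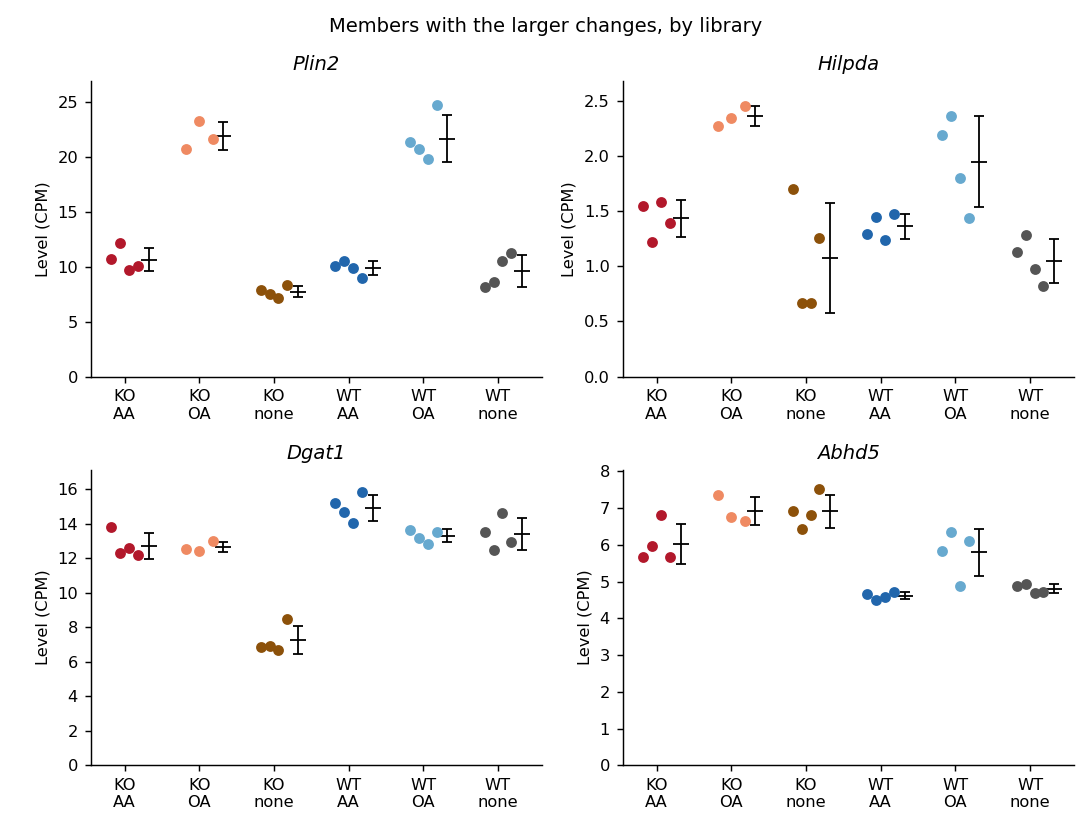
Level of Plin2, Hilpda, Dgat1 and Abhd5 in each library, in CPM on the vertical axis, for KO and WT with AA, with OA and with no fatty acid. Each point is a library, and the bars give mean ± SD. Plin2 stands at 20.8 to 23.3 CPM in KO with OA and 19.8 to 24.8 CPM in WT with OA, above every other library, and Dgat1 is lowest in untreated KO, at 6.71 to 8.45 CPM.

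Per kilobase of exon, Plin3 and Pnpla2 were the most abundant members in each of the 6 groups, and Dgat2 and Mgll the least. In untreated KO, Plin3 averaged 12.4 ± 0.928 and Pnpla2 10.7 ± 0.571 CPM per kb, with overlapping libraries. In untreated WT, Plin3 averaged 11.8 ± 0.314 and Pnpla2 10.03 ± 0.698 CPM per kb (SD, n = 4 each), with no overlap. Dgat1 came next in untreated WT at 4.39 ± 0.299 CPM per kb and Plin2 after it at 2.74 ± 0.418. In untreated KO these genes overlapped, with Dgat1 at 2.37 ± 0.267 and Plin2 at 2.20 ± 0.146 CPM per kb. OA turned the order around, with Plin2 at 6.24 ± 0.370 CPM per kb above Dgat1 at 4.15 ± 0.0991 in KO (n = 3) and Plin2 at 6.18 ± 0.616 above Dgat1 at 4.35 ± 0.123 in WT (n = 4). Lipe, Hilpda, Abhd5 and G0s2 lay together between 0.601 and 2.14 CPM per kb as group means, and most neighbours among them overlapped, except in KO with OA, where none did. Over all libraries Plin3 ranked at the 77.1 percentile of the genes tested, Plin2 at the 55.3 percentile and Mgll at the 2.90 percentile.

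**Figure D2:**
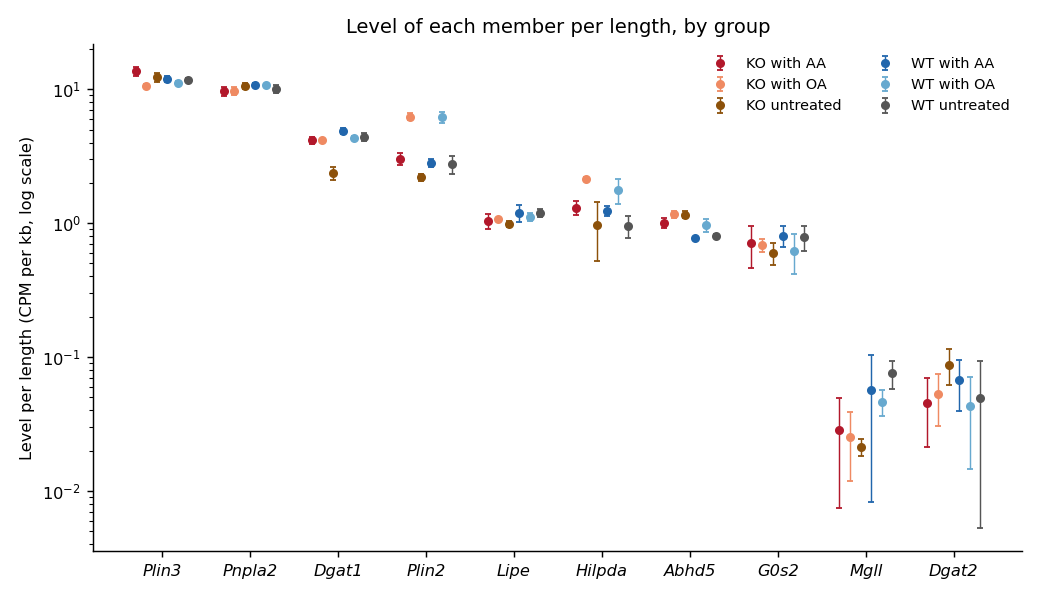
Mean level of each member per kilobase of exon in each of the 6 groups, in CPM per kb on a log axis, with SD as bars (n = 3 in KO with OA, n = 4 elsewhere). The lower end of a bar that would pass below zero is drawn just above it. Plin3 and Pnpla2 are the highest members in all groups, and Plin2 passes Dgat1 only in the groups given OA.

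Plin2 encodes the perilipin that coats droplets in most cells, and the protein is held stable by the droplet itself. The gene lies at chr4:86648386-86670060 on the minus strand (GRCm38). Its RefSeq start window, chr4:86670010-86670309, and that of a Hilpda transcript, chr6:29272376-29272675 on the plus strand, are shown because these are the members that rose with OA in both genotypes. Each runs 5′ to 3′ along its gene, from 250 bases before the start site to 50 after it. Capitals mark AGGTCA, the core that PPAR and related nuclear receptors bind in pairs, and ACGTG, a form of the core of the hypoxia element, on either strand.
Plin2: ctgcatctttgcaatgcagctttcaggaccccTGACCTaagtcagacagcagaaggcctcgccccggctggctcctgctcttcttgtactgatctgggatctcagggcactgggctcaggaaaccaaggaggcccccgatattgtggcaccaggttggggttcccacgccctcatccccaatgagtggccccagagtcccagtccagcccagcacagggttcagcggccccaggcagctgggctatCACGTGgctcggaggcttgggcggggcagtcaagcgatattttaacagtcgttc
Hilpda: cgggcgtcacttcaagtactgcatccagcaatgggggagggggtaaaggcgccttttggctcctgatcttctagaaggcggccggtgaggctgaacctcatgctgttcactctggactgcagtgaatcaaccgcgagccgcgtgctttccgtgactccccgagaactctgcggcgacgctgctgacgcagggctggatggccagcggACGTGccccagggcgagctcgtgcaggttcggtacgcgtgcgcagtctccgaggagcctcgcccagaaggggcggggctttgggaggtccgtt
The Plin2 window held AGGTCA on the opposite strand 218 bases before the start site, a match found in 16.3% of 32851 RefSeq start windows of this length. It also held CACGTG 4 bases before the start site, which contains ACGTG on both strands and was found in 7.15% of windows. The Hilpda window held ACGTG 43 bases before the start site, found in 19.6% of windows, and no AGGTCA. The window of the other Hilpda start, chr6:29272238-29272537, held neither ACGTG nor AGGTCA. Other forms of the hypoxia core, such as GCGTG, were not searched. Among the other members, Abhd5 also held AGGTCA, on the opposite strand 69 bases before the start site. CACGTG lay 44 bases before a start site of Mgll and 155 bases before one of Lipe. None of these genes was called with OA by edgeR, so such matches are not particular to the members that rose. The direct repeat of AGGTCA with 1 base between its copies was in none of the 11 windows of the 8 members with an entry, and in 0.0396% of all windows.

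With OA, Plin2 stood at 20.8, 23.3 and 21.7 CPM in the KO libraries, against 7.89, 7.55, 7.15 and 8.35 CPM in untreated KO. In WT it stood at 21.4, 20.8, 19.8 and 24.8 CPM with OA, against 8.21, 8.59, 10.5 and 11.2 CPM untreated. No library given OA overlapped an untreated one in either genotype. The log2 change was 1.51 ± 0.0900 (SE; 2.84-fold, adjusted p = 4.18e-15 by edgeR's quasi-likelihood test) in KO and 1.18 ± 0.0821 (2.26-fold, adjusted p = 2.07e-12) in WT. Fewer cells that carry a transcript and less of it per cell cannot be told apart in these bulk libraries. Summed macrophage markers were 7.52 to 9.24 CPM in KO with OA and 11.1 to 12.9 CPM in untreated KO. In WT they were 9.42 to 11.4 CPM with OA and 11.5 to 14.9 CPM untreated. Summed platelet markers went the other way, at 4.86 to 6.33 CPM in KO with OA and 3.23 to 4.36 CPM in untreated KO. Their WT values were 9.94 to 12.1 CPM with OA and 8.42 to 9.94 CPM untreated. Against untreated cells, OA called only Itgam among the 6 macrophage genes, lower in both genotypes. Of the platelet genes tested, only Itga2b was called with OA, higher in KO. The part of other cells in the Plin2 change was not tested. The OA effect was larger in KO by 0.33 ± 0.123 on the log2 scale, which missed the threshold in edgeR (adjusted p = 0.0748, 95% interval 0.08 to 0.58). This difference was called in DESeq2 (adjusted p = 0.0459) and without a filter on low counts (0.0232). It was also called without WT with OA replicate 4 (0.0222), untreated WT replicate 1 (0.0295) or untreated WT replicate 2 (0.0443).

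AA moved Plin2 less. It gave 10.7, 12.2, 9.74 and 10.1 CPM in KO, all above the 7.15 to 8.35 CPM of untreated KO, for a log2 change of 0.47 ± 0.0888 (1.39-fold, adjusted p = 7.82e-05). WT libraries with AA had 10.1, 10.6, 9.87 and 9.01 CPM and lay inside the untreated WT range of 8.21 to 11.2 CPM, with a log2 change of 0.04 (adjusted p = 0.959, 95% interval -0.14 to 0.22). The AA effect differed between genotypes by 0.43 ± 0.124 (adjusted p = 0.0154). That difference includes the lower start of KO, since untreated KO averaged 7.73 ± 0.512 CPM and untreated WT 9.64 ± 1.47 CPM, a log2 change of -0.32 ± 0.0907 (adjusted p = 0.00384) in groups that overlapped. With fatty acid the genotypes were not told apart, at a log2 change of 0.12 with AA (adjusted p = 0.288, 95% interval -0.06 to 0.29) and 0.01 with OA (adjusted p = 0.915, 95% interval -0.15 to 0.18). Set directly against OA, AA gave a lower Plin2 level, with a log2 change of -1.03 ± 0.0854 in KO (adjusted p = 3.07e-11) and -1.14 ± 0.0816 in WT (adjusted p = 4.91e-12). Between the acids, 3 of 10 members were called in KO, 1 higher and 2 lower with AA, against 14% of genes (6.73% higher, 7.3% lower). In WT, 2 of 10 were called, both lower with AA, against 2.95% (1.95% higher, 0.999% lower).

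Plin3, at chr17:56278962-56290511 on the minus strand, encodes a perilipin that moves onto new droplets from the cytosol. In KO its levels were 31.0, 31.7, 27.2 and 27.8 CPM with AA, 23.9, 22.3 and 22.9 CPM with OA, and 28.8, 24.2, 26.0 and 27.7 CPM untreated. The libraries with OA lay below all others of this genotype, and those with AA overlapped the untreated ones. The log2 change was -0.21 ± 0.0586 for OA (adjusted p = 0.00735) and 0.14 ± 0.0528 for AA (adjusted p = 0.0372), and AA stood above OA by 0.35 ± 0.0577 (adjusted p = 3.31e-05). The OA call was lost without KO with OA replicate 2 (adjusted p = 0.0521). The AA call was lost in limma-voom (adjusted p = 0.131), in a fit of the groups compared alone (0.0573) and without any one of 4 libraries: KO with AA replicate 1 (0.0775), KO with AA replicate 2 (0.107), untreated KO replicate 2 (0.190) or untreated KO replicate 3 (0.0904). In WT no Plin3 change was called, with group means of 25.7 ± 1.33 CPM with AA, 24.2 ± 0.549 CPM with OA and 25.5 ± 0.678 CPM untreated. With AA, KO stood above WT by 0.20 ± 0.0525 (adjusted p = 0.00244), the groups overlapping.

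Hilpda, at chr6:29272488-29275446 on the plus strand, encodes a small droplet protein induced by hypoxia and fatty acids that inhibits the lipase of Pnpla2. With OA it stood at 2.27, 2.35 and 2.46 CPM in KO, against 1.70, 0.669, 0.671 and 1.25 CPM in untreated KO. The corresponding WT levels were 2.19, 2.36, 1.80 and 1.44 CPM with OA, against 1.13, 1.28, 0.978 and 0.817 CPM untreated. Libraries given OA lay above the untreated ones in both genotypes. Untreated KO libraries were spread, with replicates 1 and 4 above replicates 2 and 3. The log2 change with OA was 1.15 ± 0.218 in KO (2.22-fold, adjusted p = 1.18e-04) and 0.88 ± 0.206 in WT (1.84-fold, adjusted p = 0.00809), and the effects were not told apart between genotypes (difference 0.28, adjusted p = 0.643, 95% interval -0.34 to 0.89). Without WT with OA replicate 2, the WT call was lost (adjusted p = 0.0504). AA gave 0.43 ± 0.213 in KO (adjusted p = 0.135) and 0.36 ± 0.212 in WT (adjusted p = 0.712), neither called, but without untreated KO replicate 1 the KO value was 0.74 (adjusted p = 0.00829). AA against OA gave -0.72 ± 0.205 in KO (adjusted p = 0.0143), a call lost without KO with AA replicate 2 (0.0583) or KO with OA replicate 3 (0.0567), and -0.51 ± 0.198 in WT (adjusted p = 0.191). Untreated KO and WT had nearly equal means, 1.07 ± 0.501 CPM and 1.05 ± 0.200 CPM.

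G0s2, at chr1:193272161-193273217 on the minus strand, encodes the other inhibitor of the same lipase. It was scarce, with 16 to 52 counts per library and group means between 0.524 and 0.699 CPM, and edgeR called it in no comparison. The 95% interval for the log2 change with OA was -0.41 to 0.81 in KO and -0.89 to 0.21 in WT. A moderate rise in KO or a moderate fall in WT could therefore go undetected at this depth.

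**Figure D3:**
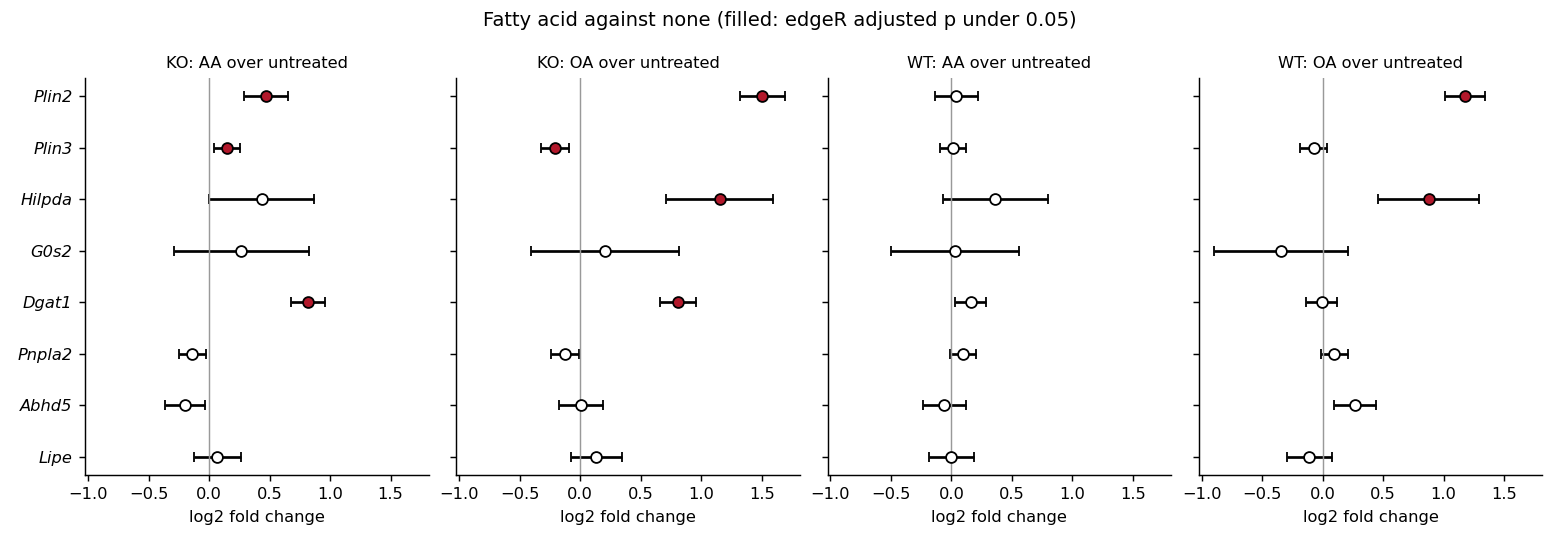
Log2 change with AA or OA against no fatty acid, in KO and in WT, for 8 members (Dgat2 and Mgll, whose intervals are much wider, are left out). Points are edgeR estimates, bars 95% intervals, and filled points have an adjusted p under 0.05. Plin2 and Hilpda are filled with OA in both genotypes, and Dgat1 is filled in KO with either acid at 0.81 and in WT with neither.

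Dgat1, at chr15:76502015-76511951 on the minus strand, encodes an acyltransferase of the endoplasmic reticulum that joins the last fatty acid to diacylglycerol and handles fatty acids taken up from outside. Untreated KO libraries had 6.86, 6.93, 6.71 and 8.45 CPM, against 13.5, 12.5, 14.6 and 13.0 CPM in untreated WT. The genotypes did not overlap, and KO replicate 4 stood apart from the other KO libraries. The log2 change was -0.89 ± 0.0686 (1.85-fold lower, adjusted p = 1.94e-13), and -0.97 without KO replicate 4.

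With fatty acid, Dgat1 in KO stood at 13.8, 12.3, 12.6 and 12.2 CPM with AA and 12.5, 12.4 and 13.0 CPM with OA. Every one of these 7 libraries lay above every untreated KO library. The log2 change was 0.81 ± 0.0683 with AA (1.76-fold, adjusted p = 1.16e-11) and 0.81 ± 0.0736 with OA (1.75-fold, adjusted p = 1.44e-10), and the acids were not told apart in KO (0.01, adjusted p = 0.972, 95% interval -0.13 to 0.15). WT libraries had 15.2, 14.7, 14.1 and 15.8 CPM with AA and 13.6, 13.2, 12.8 and 13.6 CPM with OA, against the 12.5 to 14.6 CPM of untreated WT. Neither acid was called in WT, with log2 changes of 0.16 ± 0.0628 for AA (adjusted p = 0.461, unadjusted p = 0.0152) and -0.01 ± 0.0638 for OA (adjusted p = 0.975, 95% interval -0.14 to 0.12). The difference of effects between KO and WT was 0.65 ± 0.0929 for AA (adjusted p = 4.04e-06) and 0.82 ± 0.0975 for OA (adjusted p = 3.27e-07). The difference of AA effects called 3 of 10 members, 2 higher and 1 lower, against 13.9% of genes (5.97% higher, 7.98% lower). For OA it called 1 of 10, Dgat1, against 12.5% (5.9% higher, 6.62% lower). The remaining genotype gap was -0.23 ± 0.0625 with AA (adjusted p = 0.00251), where KO libraries lay below all WT libraries, and -0.07 with OA (adjusted p = 0.439, 95% interval -0.21 to 0.07). All of the Dgat1 values against untreated KO rest on the same 4 libraries.

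Dgat2, at chr7:99153658-99182719 on the minus strand, encodes the unrelated enzyme for the same step, tied to fatty acids made in the cell. It had 2 to 14 counts per library, and edgeR called it in no comparison. Between untreated KO and WT the log2 change was 0.84 ± 0.548 (adjusted p = 0.212, 95% interval -0.28 to 1.95), called in limma-voom (adjusted p = 0.0481) and without WT replicate 1 (0.0432). The 95% interval for OA was -1.91 to 0.48 in KO, below the 0.81 of Dgat1, and -1.40 to 1.05 in WT.

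Pnpla2, at chr7:141455198-141460743 on the plus strand, encodes adipose triglyceride lipase, which takes the first fatty acid off triacylglycerol. Its levels were even, between 26.2 and 34.3 CPM in all 23 libraries. With AA, KO libraries had 26.2, 30.9, 28.7 and 31.0 CPM and WT libraries 33.7, 31.1, 32.2 and 32.2 CPM, a small gap without overlap (log2 change -0.14 ± 0.0532, adjusted p = 0.0271). That call was lost without KO with AA replicate 1 (adjusted p = 0.156), KO with AA replicate 3 (0.0619) or WT with AA replicate 1 (0.0931). The AA effect differed between genotypes by -0.23 ± 0.0757 (adjusted p = 0.0345), being -0.14 in KO (adjusted p = 0.0510) and 0.09 in WT (0.707), neither called alone in edgeR. The KO effect was called in limma-voom (0.0345), with a stricter filter (0.0450) and without KO with AA replicate 2 (0.0463), KO with AA replicate 4 (0.0283) or untreated KO replicate 3 (0.0232). The called difference was lost under upper quartile scaling (adjusted p = 0.0505), in a fit of the 4 groups alone (0.0710) and without any one of 10 libraries: replicates 1 and 3 of KO with AA, 2 and 4 of untreated KO, 1, 3 and 4 of WT with AA and 2, 3 and 4 of untreated WT (0.0554 to 0.148). The OA difference of -0.22 ± 0.0793 missed the threshold in edgeR (adjusted p = 0.0581), but was called in DESeq2 (0.0491), in limma-voom (0.0284), without a filter (0.0436), with a stricter filter (0.0447) and without KO with OA replicate 1 (0.0349), untreated KO replicate 3 (0.0296) or untreated WT replicate 1 (0.0174). KO against WT with OA also missed it at -0.14 ± 0.0582 (adjusted p = 0.0571), but was called in limma-voom (0.0345), with upper quartile factors (0.0253), without a filter (0.0394), with a stricter filter (0.0272), in a fit of the groups compared alone (0.0209) and without KO with OA replicate 1 (0.0265). These Pnpla2 values lie close to the threshold on either side.

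Abhd5, at chr9:122351608-122381524 on the plus strand, encodes CGI-58, the activator that binds this lipase. It stood at 5.67, 5.96, 6.80 and 5.66 CPM in KO with AA, against 4.66, 4.51, 4.59 and 4.72 CPM in WT with AA. With OA it stood at 7.37, 6.77 and 6.65 CPM in KO, against 5.84, 6.36, 4.89 and 6.10 CPM in WT. Untreated libraries had 6.92, 6.43, 6.80 and 7.51 CPM in KO, against 4.87, 4.94, 4.69 and 4.72 CPM in WT. KO lay above WT without overlap in all 3 conditions. The log2 change was 0.38 ± 0.0839 with AA (1.30-fold, adjusted p = 2.92e-04), 0.26 ± 0.0886 with OA (1.19-fold, adjusted p = 0.0179) and 0.52 ± 0.0843 untreated (1.44-fold, adjusted p = 2.46e-06). With OA the call was lost without a filter on low counts (adjusted p = 0.0688), without KO with OA replicate 1 (0.103) or without WT with OA replicate 3 (0.0941). Against untreated cells, edgeR called no Abhd5 effect with all libraries. OA in WT gave 0.27 ± 0.0852 (adjusted p = 0.0703, and 0.0171 without WT with OA replicate 3). AA in KO gave -0.20 ± 0.0816 (adjusted p = 0.0693, and 0.0229 without KO with AA replicate 3). AA in WT gave -0.06 (adjusted p = 0.935) and OA in KO 0.01 (adjusted p = 0.977). In WT, AA against OA gave -0.33 ± 0.0854 (adjusted p = 0.0227), a call lost without a filter on low counts (0.0561) and without any one of 6 libraries, replicates 1, 2 and 3 of WT with AA and replicates 1, 2 and 4 of WT with OA (0.0517 to 0.110). An antisense gene, A730085K08Rik, shares 950 exon bases with Abhd5, 16.0% of its exons. Its own log2 change between untreated KO and WT was 0.45 (adjusted p = 0.130), so part of the Abhd5 counts is uncertain.

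Lipe, at chr7:25379527-25398710 on the minus strand, encodes hormone-sensitive lipase, which mainly cleaves diacylglycerol. It had 5.79, 5.49, 6.24 and 5.64 CPM in untreated KO, against 7.08, 7.63, 6.79 and 6.61 CPM in untreated WT. The groups did not overlap, and the log2 change was -0.28 ± 0.0948 (adjusted p = 0.0133), lost without WT replicate 2 (adjusted p = 0.0584). With AA it was -0.21 ± 0.0921 (adjusted p = 0.0642 in edgeR, called with upper quartile factors at 0.0433, with a stricter filter at 0.0454, and without KO with AA replicate 3 at 0.0151 or WT with AA replicate 3 at 0.0105) and with OA -0.04 ± 0.102 (adjusted p = 0.794). Neither fatty acid was called for Lipe in either genotype. The antisense gene 4732471J01Rik shares 918 exon bases with Lipe, 15.6% of its exons. Its own log2 change between untreated KO and WT was -0.28 ± 0.0981 (adjusted p = 0.0172), called lower like Lipe and of the same size, so reads of the pair may not be told apart.

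Mgll, at chr6:88724412-88828360 on the plus strand, encodes monoacylglycerol lipase, which frees the last fatty acid. It was near the floor of the table, with 4, 4, 6 and 4 counts in untreated KO, against 18, 20, 20 and 12 counts in untreated WT. KO lay below WT in every library, with sums of 18 and 70 counts, and the fitted log2 change was -1.79 ± 0.574 (adjusted p = 0.00935, 95% interval -2.95 to -0.62). The size of a fitted change at such counts depends on the small count the fit adds. With AA the log2 change between genotypes was -1.03 ± 0.546 (adjusted p = 0.130, and 0.0438 without WT with AA replicate 2) and with OA -0.83 ± 0.634 (adjusted p = 0.312), neither called in edgeR with all libraries.

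**Figure D4:**
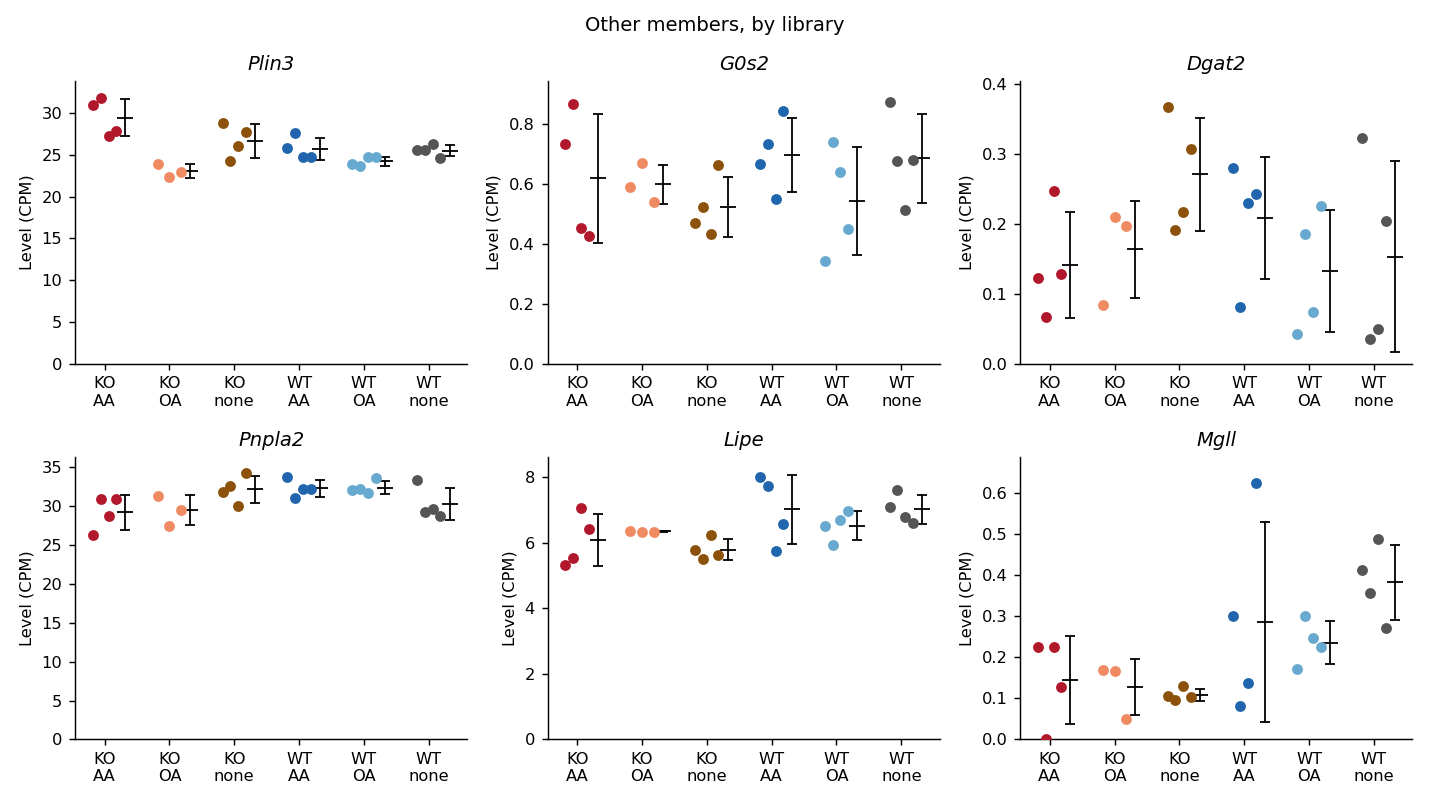
Level of Plin3, G0s2, Dgat2, Pnpla2, Lipe and Mgll in each library, in CPM, by group, with mean ± SD as bars. Each panel has its own scale starting at 0. Pnpla2 stays between 26.2 and 34.3 CPM throughout, and Mgll is higher in untreated WT than in untreated KO.

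**Figure D5:**
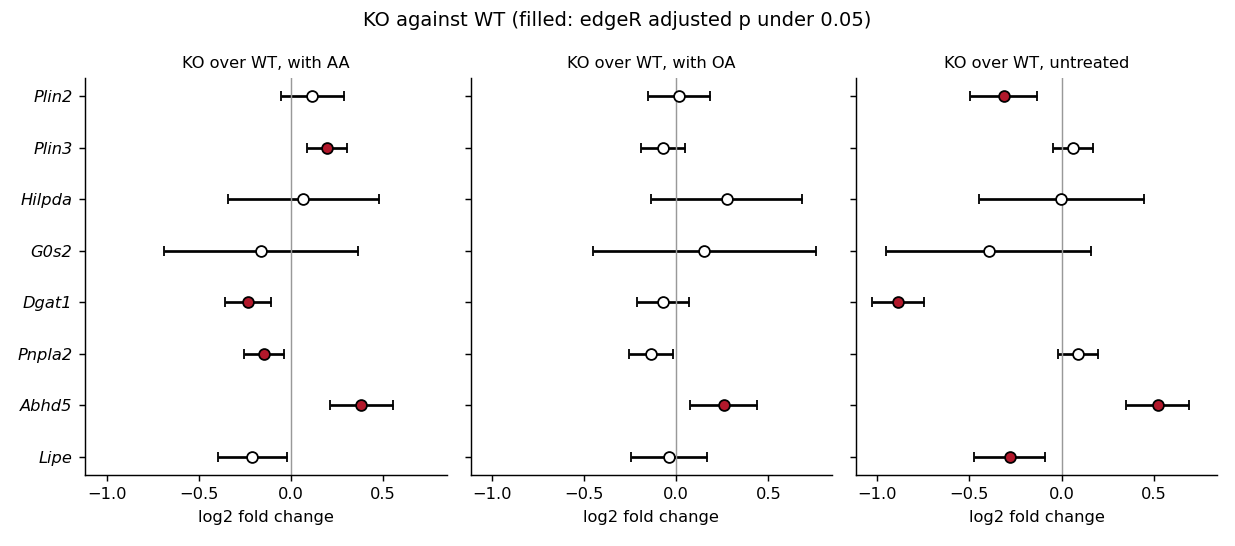
Log2 change of KO over WT with AA, with OA and untreated, for the same 8 members as in the plot of fatty acid effects. Points are edgeR estimates, bars 95% intervals, and filled points have an adjusted p under 0.05. Abhd5 is filled and above 0 in all panels, and Dgat1 stands at -0.23 with AA, -0.07 with OA and -0.89 untreated.

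Other genes of droplet biology were counted from lists of pathway members. Of 23 tested genes among PPAR receptors and their targets, OA in KO raised 7 and lowered 4, and OA in WT raised 5 and lowered 0, while AA in KO raised 5 and lowered 5, and AA in WT raised 2 and lowered 0. The median log2 change of these 23 was 0.01 for OA in KO, 0.10 for OA in WT, -0.00 for AA in KO and 0.04 for AA in WT. Between untreated KO and WT, 11 were higher and 3 lower, with a median of 0.15, against 25.6% higher, 24.2% lower and a median of -0.00 over all genes. The shares of all genes called higher and lower were 10.5% and 12.7% for OA in KO, 1.23% and 2.5% for OA in WT, 12.2% and 15.4% for AA in KO, and 0.161% and 0.255% for AA in WT, and hold for the other lists too. Cpt1a, which admits fatty acids to mitochondria, averaged 110 ± 1.24 CPM in KO with AA, 150 ± 2.66 in KO with OA and 59.9 ± 1.14 in untreated KO. Its WT means were 69.0 ± 1.35 CPM with AA, 124 ± 2.11 with OA and 54.6 ± 1.84 untreated. Cpt1a rose in all 4 comparisons, by log2 changes of 0.88 (AA) and 1.32 (OA) in KO and 0.34 (AA) and 1.19 (OA) in WT, the smallest effect having an adjusted p of 1.04e-08. Slc25a20, the carnitine carrier that works with it, rose with OA by 0.95 ± 0.0814 in KO (adjusted p = 3.22e-11) and 0.62 ± 0.0746 in WT (adjusted p = 4.50e-07). Slc25a20 was also called higher with AA in KO, at 11.9 ± 0.960 CPM against 8.61 ± 0.720 CPM untreated, but not with AA in WT. Fabp5, a fatty acid carrier of the cytosol, fell in KO, to 67.9 ± 3.78 CPM with AA (log2 change -0.57, adjusted p = 9.03e-12) and 75.8 ± 1.98 CPM with OA (-0.41, adjusted p = 1.21e-07), against 101 ± 4.56 CPM untreated.

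Of 7 tested genes of droplet formation, OA in KO raised 1 and lowered 1, AA in KO did the same, OA in WT lowered 1 and AA in WT called 0, with medians of -0.01, -0.05, -0.05 and -0.04 in that order. Acsl3, the acyl-CoA synthetase found on budding droplets, fell with OA by 0.59 on the log2 scale in KO (adjusted p = 1.70e-06) and by 0.32 on the log2 scale in WT (adjusted p = 0.00572). Acsl3 was also called lower with AA in KO, at 8.22 ± 0.812 CPM against 11.1 ± 0.912 CPM untreated, but not with AA in WT. Spg20, whose protein spartin is found on droplets, rose in KO with AA by 0.21 (adjusted p = 0.00366) and with OA by 0.28 (adjusted p = 0.000755). Of 14 tested genes of glycerolipid and sterol ester synthesis, none was called with either acid in WT by edgeR, and in KO AA lowered 4 and OA lowered 3, with none higher. Between untreated KO and WT, 4 of these 14 were higher and 4 lower (median 0.01), near the 49.8% of all genes called in that comparison. Soat2, which makes cholesterol ester, averaged 39.5 ± 2.04 CPM in untreated KO and 60.3 ± 1.47 CPM in untreated WT, a log2 change of -0.61 ± 0.0398 (adjusted p = 1.99e-15). Lpin1, a phosphatidate phosphatase one step before the DGAT enzymes, was higher, with 40.8 ± 2.62 CPM in untreated KO and 30.7 ± 1.76 CPM in untreated WT (log2 change 0.41, adjusted p = 8.33e-10). Of 10 other lipases and lipolysis genes, 1 was higher and 5 were lower in untreated KO than in WT (median -0.09), against 49.8% of all genes called there (25.6% higher, 24.2% lower), and Lpl, the lipase of lipoproteins, had 1.91 ± 0.253 CPM in untreated KO and 3.32 ± 0.319 CPM in untreated WT. AA in KO raised 3 of the 10, among them the lysosomal lipase Lipa by 0.33 (adjusted p = 4.84e-04). OA in KO raised 2, Faf2 and Lipa, and lowered 2, Aup1 and Hsd17b11. The coat relatives Plin1, Plin4, Plin5, Cidea and Cidec were too scarce to test, and 76.4% of the exons of Cideb, the member that was tested, overlap Nop9.

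Over the 23 libraries, the genes whose log2 CPM went most closely with Plin2 were Frmd4b (Pearson r = 0.902), Slc25a20 (0.895) and Sh3bp5l (0.865). Those for Dgat1 were Pmepa1 (0.959), Tex2 (0.945) and Fbxo32 (0.941), and those for Abhd5 were Pfkl (0.929), Lman2 (0.914) and Blmh (0.905). For Hilpda they were Fasl (0.853), Etfdh (0.792) and Frmd4b (0.791). Such values mix genotype, fatty acid and library scaling, which all 23 libraries share. Among the members themselves, Hilpda went with Plin2 (r = 0.733) and Abhd5 against Dgat1 (r = -0.608), and no other pair passed 0.6 in size.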

How the data were processed

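RNA of 23 libraries in 6 groups was analysed. Libraries were stranded polyadenylated RNA libraries, per the labels' protocols. The submitters' processing notes name Trimmomatic 0.36, featureCounts, Subread 1.5.1 and the build GRCm38. No aligner, annotation release, strand or pairing setting is given in the sources used here. The authors deposited raw counts per gene with each gene's exon length, and all count columns matched a sample by name. Between 66.5% and 70.7% of counts from 1 to 19 were even in each library, as counting each mate of a read pair would give, so small counts may stand for fewer fragments.

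Genes were kept by edgeR's filterByExpr (minimum count 10, minimum total 15), leaving 18015 genes with 99.964% of counts, all 10 members among them. Library scaling was by TMM (factors 0.961 to 1.034). Group means were fitted to all libraries at once by quasi-likelihood in edgeR 4.0.16 under R 4.3.3 (17 residual degrees of freedom), and p-values were adjusted by Benjamini-Hochberg over all genes tested at a threshold of 0.05. The fit was tested on simulated counts with the same dispersion for every gene and changes placed only in WT with AA. That test did not cover unequal spread among genes or comparisons that call many genes. CPM values use the scaled library totals, and lengths come from the deposited length column. Alternatives were DESeq2 1.42.0, limma 3.58.1 voom with quality weights, other scaling factors, other filters, a replicate block, the compared groups alone and each library left out. Replicate numbers were not used as pairs in the main fit. Deviations of same-numbered libraries correlated at -0.04 to 0.11 over 55 pairs, and those of differently numbered ones at -0.09 to 0.07 over 165 pairs. The highest value was between replicate 3 of WT with AA and replicate 3 of untreated WT. Low values over all genes tested cannot exclude a pairing.

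All 10 members were tested in every comparison, and the text gives the values it has room for. From each pathway list, up to 3 genes per direction with the smallest adjusted p in a comparison could be named, and for likeness the 3 most correlated genes of mean log2 CPM of at least 1. Lpl, Lpin1, Soat2 and the others named from lists fall under this rule in at least 1 comparison. The members and lists were chosen with earlier results of these data known. Start windows of 300 bases are from RefSeq, GRCm38.p6, and matched 8 of 10 members. Motifs were searched on both strands: the nuclear receptor core AGGTCA and its direct repeat with 1 spacer base, the hypoxia core in its form ACGTG only, the E box CACGTG, the antioxidant element core TGANNNNGC and the GC box GGGCGG.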

Additional observations from a re-analysis of the deposited data

Results flagged for a closer look

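In untreated KO, Dgat1 stood at 8.45 CPM in replicate 4, while the other 3 libraries lay between 6.71 and 6.93 CPM, and the gap to the nearest was 0.876 of the group's range. It was the single library so far from its group among 50 sets of 4 libraries examined. Chance gives about 1 in 20, so 1 such library among 50 sets is no more than chance would give. The same library had 24 counts of Fabp4, a fat and endothelial cell gene, against at most 10 counts elsewhere, and 6 counts of the fat cell gene Lep, and the part of other cells in this value was not tested. Without it the untreated gap between KO and WT was -0.97 on the log2 scale, and the effects of AA and OA in KO were 0.90 and 0.89, all called.

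Fatty acid effects differed between KO and WT, by the interaction term of the model, for Plin2 with AA (0.43, adjusted p = 0.0154 by edgeR), Dgat1 with AA (0.65, adjusted p = 4.04e-06), Dgat1 with OA (0.82, adjusted p = 3.27e-07) and Pnpla2 with AA (-0.23, adjusted p = 0.0345). For Dgat1, all KO libraries given an acid lay above all untreated KO libraries, while WT libraries given an acid overlapped untreated WT. For Pnpla2, groups overlapped in both genotypes, and its call was lost under several alternatives.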

How the results depend on the processing

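The calls of Plin2 and Hilpda with OA in KO, of Plin2 with OA in WT, of Dgat1 in KO and between genotypes, of Abhd5 in untreated KO and with AA and of Mgll in untreated KO were kept under every alternative in which the gene was tested. No member reversed its direction where called. KO against WT with OA gave 1 called member, and 2 with limma-voom, upper quartile factors, the stricter filter or only the groups compared, and 0 to 1 with a library left out. OA in WT gave 2, and 1 to 3 with a library left out. AA against OA in WT gave 2, but 1 without a filter and 1 to 2 with a library left out. The difference of OA effects gave 1, but 3 with DESeq2, 2 with limma-voom, 3 without a filter, 2 with the stricter filter and 1 to 3 with a library left out. The causes were not tested. The replicate block gave the same number of called members in each comparison: 5, 4 and 1 for KO against WT untreated, with AA and with OA, 0 and 2 for AA and OA in WT, 3 and 4 in KO, 2 and 3 for AA against OA in WT and KO, and 3 and 1 for the differences of effects. Over all genes, AA in WT called 75, but 137 with DESeq2 and 48 without WT replicate 1. OA in WT called 672, but 436 without WT replicate 2, and AA against OA in WT called 531, but 349 without WT with OA replicate 4. Depth limits G0s2, Dgat2 and Mgll, which the stricter filter removed.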

Other observations

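Hilpda is a hypoxia target, and of 14 other hypoxia targets tested, untreated KO stood higher than WT in 8 and lower in 2, with a median log2 change of 0.20, against 25.6% higher, 24.2% lower and a median of -0.00 over all genes. Hilpda itself was not called in that comparison (adjusted p = 0.993). Ldha, the lactate dehydrogenase subunit of glycolysis, averaged 432 ± 11.6 CPM in untreated KO and 243 ± 6.60 CPM in untreated WT (log2 change 0.83, adjusted p = 8.44e-22 by edgeR). Bnip3, a mitophagy receptor, averaged 14.6 ± 0.385 CPM in untreated KO and 7.42 ± 0.590 CPM in untreated WT, though 22.3% of its exon bases overlap an antisense gene. OA in WT raised 1 of the 14, Bnip3, by 0.52 on the log2 scale (adjusted p = 6.99e-07), and OA in KO raised 2 and lowered 3. AA in KO raised 2 and lowered 9, while AA in WT called 0 by edgeR. Over all genes tested, 1.23% were higher and 2.5% lower with OA in WT, and 10.5% and 12.7% with OA in KO. With AA the shares were 12.2% and 15.4% in KO, and 0.161% and 0.255% in WT.

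Cd36, a fatty acid uptake receptor and PPAR target, averaged 0.292 ± 0.179 CPM in untreated KO and 1.38 ± 0.252 CPM in untreated WT, a log2 change of -2.24 ± 0.309 (adjusted p = 1.40e-07). Neither AA nor OA changed it past the test in either genotype.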
